A study of Mus musculus with 16 samples.

Results

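Phf11a, Phf11c and Phf11d are paralogous mouse genes that encode PHD finger protein 11 family members and lie close together on chromosome 14. Their probe sets were taken by gene symbol, 1 probe set a gene, which gave 3 of the 24922 probe sets on the array and 3 of the 19752 genes with a probe set of their own symbol. The family was chosen from the interferon responses measured on these same arrays, to compare which paralogue each cell type induces. The differences between IFNα and vehicle, and the differences between those responses, are therefore a description: where limma called a member in them, the call is printed beside the share of all genes called and supports nothing further. No probe set carried the symbol Phf11b, and that paralogue was not analysed here.

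A PHD finger is a zinc-binding fold that in many nuclear proteins reads the tail of a histone. Human PHF11 has been linked to NF-κB p65 at cytokine promoters in T cells and to the single-strand binding protein RPA and the nuclease EXO1 at broken DNA; separate roles of the mouse paralogues are not assumed here. Type I interferon binds a receptor of the IFNAR1 and IFNAR2 chains, whose kinases Tyk2 and Jak1 lead to the assembly of ISGF3, a complex with Irf9 that switches on interferon-stimulated genes.

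The study asked how far such genes depend on Ifnar1 and Tyk2, with 8 groups of 2 arrays each. Peritoneal macrophages (ICAM2+ F4/80+) of male 6-week-old Ifnar1 knockout mice, line B6.129S2-Ifnar1tm1Agt/Mmjax, were taken 2 h after 10000 units of IFNα under the skin, or without IFNα. Macrophages of male B10.Q/J mice aged 7 weeks, which carry a natural mutation of Tyk2, were taken 2 h or 5 h after the same dose, or after vehicle. Splenic CD4+ T cells (TCRB+ CD4+ CD8-) of B10.Q/J mice formed the same 3 groups. No group had both Ifnar1 and Tyk2 intact, and the knockout and B10.Q/J macrophages differ in strain and age as well as in the locus, so these cannot be told apart. Each vehicle pair joins an array taken at 2 h and one taken at 5 h. Whether a group's 2 arrays stem from separate mice is not in the labels, so p-values measure only the spread between these arrays.

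Some labels disagreed with each other. The knockout pair titled without IFNα has a preparation text stating that it was injected, and the title was followed. Of the 6 B10.Q/J macrophage titles, 5 carry the code for spleen, and 1 of the T-cell vehicle titles, that of array 1, opens with a B-cell code, yet its Cd3e level was 12.40, its Cd4 level 12.14 and its Cd79b level 8.19 on the log2 scale, close to 12.46, 12.31 and 8.33 on T-cell vehicle array 2. Adgre1, which encodes F4/80, lay between 12.73 and 13.20 on the 10 macrophage arrays and between 5.88 and 8.63 on the 6 T-cell arrays. The Ifnar1 probe set did not separate the knockout: it read 9.93 and 10.31 with IFNα and 10.26 and 10.09 without, against 10.09 to 10.46 in the 6 B10.Q/J macrophage arrays. All levels are log2 of the deposited intensity, and the medians of the 16 arrays lay between 7.44 and 7.60.

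The stretch around each start site is shown because all 3 paralogues read higher after IFNα in B10.Q/J macrophages. The sequences are RefSeq's, of build GRCm38.p6 and on the minus strand, at chr14:59297473-59297772 for Phf11a, chr14:59393463-59393762 for Phf11c and chr14:59365441-59365740 for Phf11d. Each runs from 250 bases before to 50 bases after a start base. That base is the annotated gene start for Phf11c and Phf11d but not for Phf11a. Capitals mark a pair of GAAA blocks with a spacer of 2 bases (GAAANNGAAA, the form of an interferon-stimulated response element) or of 1 base (GAAANGAAA, a spacing added after the sequences had been read).
Phf11a: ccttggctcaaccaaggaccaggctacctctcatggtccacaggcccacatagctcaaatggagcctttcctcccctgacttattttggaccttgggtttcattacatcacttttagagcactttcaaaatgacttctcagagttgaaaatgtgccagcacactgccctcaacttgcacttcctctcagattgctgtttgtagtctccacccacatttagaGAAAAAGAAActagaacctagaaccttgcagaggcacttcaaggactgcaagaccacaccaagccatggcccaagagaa
Phf11c: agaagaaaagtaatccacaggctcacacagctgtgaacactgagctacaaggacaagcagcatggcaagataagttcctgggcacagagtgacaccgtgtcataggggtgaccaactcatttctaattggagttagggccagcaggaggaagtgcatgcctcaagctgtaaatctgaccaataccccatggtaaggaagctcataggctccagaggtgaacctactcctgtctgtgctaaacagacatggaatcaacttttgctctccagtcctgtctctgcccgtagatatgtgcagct
Phf11d: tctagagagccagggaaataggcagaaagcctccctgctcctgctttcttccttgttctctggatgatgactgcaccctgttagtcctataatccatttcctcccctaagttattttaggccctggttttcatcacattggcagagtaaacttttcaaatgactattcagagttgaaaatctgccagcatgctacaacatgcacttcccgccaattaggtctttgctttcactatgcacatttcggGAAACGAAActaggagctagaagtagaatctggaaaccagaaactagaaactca

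Both strands were searched for the 2 GAAA forms and for TTCNNNGAA, the form that STAT dimers bind. Phf11a held GAAAAAGAAA at -29 to -20, counted from the start base of its window as 0. The annotated start of the Phf11a gene, 59297564, lies upstream of that base, so the match falls inside the annotated gene. The annotated start of Phf11b, 59341388, likewise lies upstream of the start base of its window. Phf11d held GAAACGAAA at -4 to 4, across its annotated start. The window of Phf11c held none of the 3 forms, nor did those of Setdb2 or the read-through gene Gm45935 that joins Setdb2 to Phf11c, and the Phf11b window held GAAANNGAAA 1 time. Of 32851 mouse promoter windows of the same length, GAAANNGAAA occurred in 3.44%, GAAANGAAA in 3.17% and TTCNNNGAA in 8.30%. In global alignments the windows of Phf11a and Phf11b were identical in 85.4% of 321 columns, those of Phf11a and Phf11d in 59.5% of 336, those of Phf11c and Phf11d in 49.6% of 335 and those of Phf11a and Phf11c in 48.3% of 329. A match is a description of letters, and whether a factor binds there was not tested.

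In B10.Q/J macrophages all 3 paralogues were higher after IFNα than after vehicle, and in T cells the difference was largest for Phf11c; the paralogues were not tested against each other. Phf11a read 10.18 and 9.63 at 2 h and 9.82 and 9.44 at 5 h after IFNα, against 7.57 and 7.85 with vehicle. All 4 treated arrays of Phf11a lay above both vehicle arrays, by more than 1 log2 unit. The log2 difference was 2.20 ± 0.29 (SE), a 4.59-fold rise in level, at 2 h and 1.92 ± 0.29, 3.79-fold, at 5 h.

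Phf11d had a difference close to that of Phf11a at 2 h and the largest of the family at 5 h. It read 11.75 and 10.95 at 2 h and 11.58 and 11.74 at 5 h after IFNα, against 9.12 and 9.11 in vehicle macrophages. The treated arrays did not overlap the vehicle pair, whose arrays were almost equal. The log2 difference of Phf11d was 2.24 ± 0.34, or 4.71-fold, at 2 h and 2.55 ± 0.34, or 5.84-fold, at 5 h, rank 25 and rank 17 among the 10531 genes tested in macrophages. At 2 h it was below that of Phf11a without IFNα array 1 (1.84 against 1.92) or vehicle array 2 (2.24 against 2.34).

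Phf11c had the smallest change of the family in macrophages and the widest gap between arrays at 2 h. It read 9.84 and 8.73 at 2 h and 8.97 and 9.21 at 5 h after IFNα, against 7.73 and 7.67 with vehicle. The 2 arrays at 2 h lay on either side of the 5 h pair, and all 4 were above vehicle. The log2 difference was 1.58 ± 0.33, 3-fold, at 2 h and 1.39 ± 0.33, 2.62-fold, at 5 h; without the first IFNα 2 h array it was 1.03 at 2 h, and without the second it was 2.14. At an adjusted p under 0.05 in limma, 2 of the 3 members were among the genes higher at 2 h, Phf11a and Phf11d, and the same 2 at 5 h. Over all genes 84 of 10531 (0.798%) were higher at 2 h and 88 (0.836%) at 5 h. These responses chose the members, so nothing is read from those counts. The calls also rested on single arrays. At 2 h that of Phf11a was lost without IFNα array 1 (1.92) or vehicle array 1 (2.06), and that of Phf11d without IFNα array 1 (1.84) or either vehicle array (2.24), while Phf11c gained one without IFNα array 2. At 5 h both calls were lost without any 1 of the 4 arrays (1.73 to 2.11 for Phf11a and 2.47 to 2.63 for Phf11d). Summed markers of several other cell types also moved without overlap. The 5 neutrophil genes gave 336.7 to 355.2 at 2 h and 335.3 to 354.4 at 5 h, against 309.9 to 328.5 with vehicle. The 5 CD4 T-cell genes gave 509.4 to 527.7 at 2 h and 421.5 to 427.1 at 5 h, against 455.3 to 498.5. The 5 B-cell genes gave 663.4 to 681.9 at 5 h, against 684.9 to 723.3, and overlapped at 2 h. The 2 plasmacytoid dendritic cell genes gave 764.9 to 902.8 at 2 h and 748.2 to 828.5 at 5 h, against 616.8 to 625.1 with vehicle. Bst2, which interferon also induces, read 9.51 and 9.35 at 2 h and 9.25 and 9.45 at 5 h, against 8.95 and 8.92 with vehicle. The other gene, Siglech, read 7.43 and 6.84 at 2 h and 7.11 and 7.03 at 5 h, against 6.93 and 7.15, so its groups overlapped. The part of any of these other cells in the members' values was not tested. These are bulk measurements, in which fewer cells of a type and less RNA per cell cannot be told apart.

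**Figure D1:**
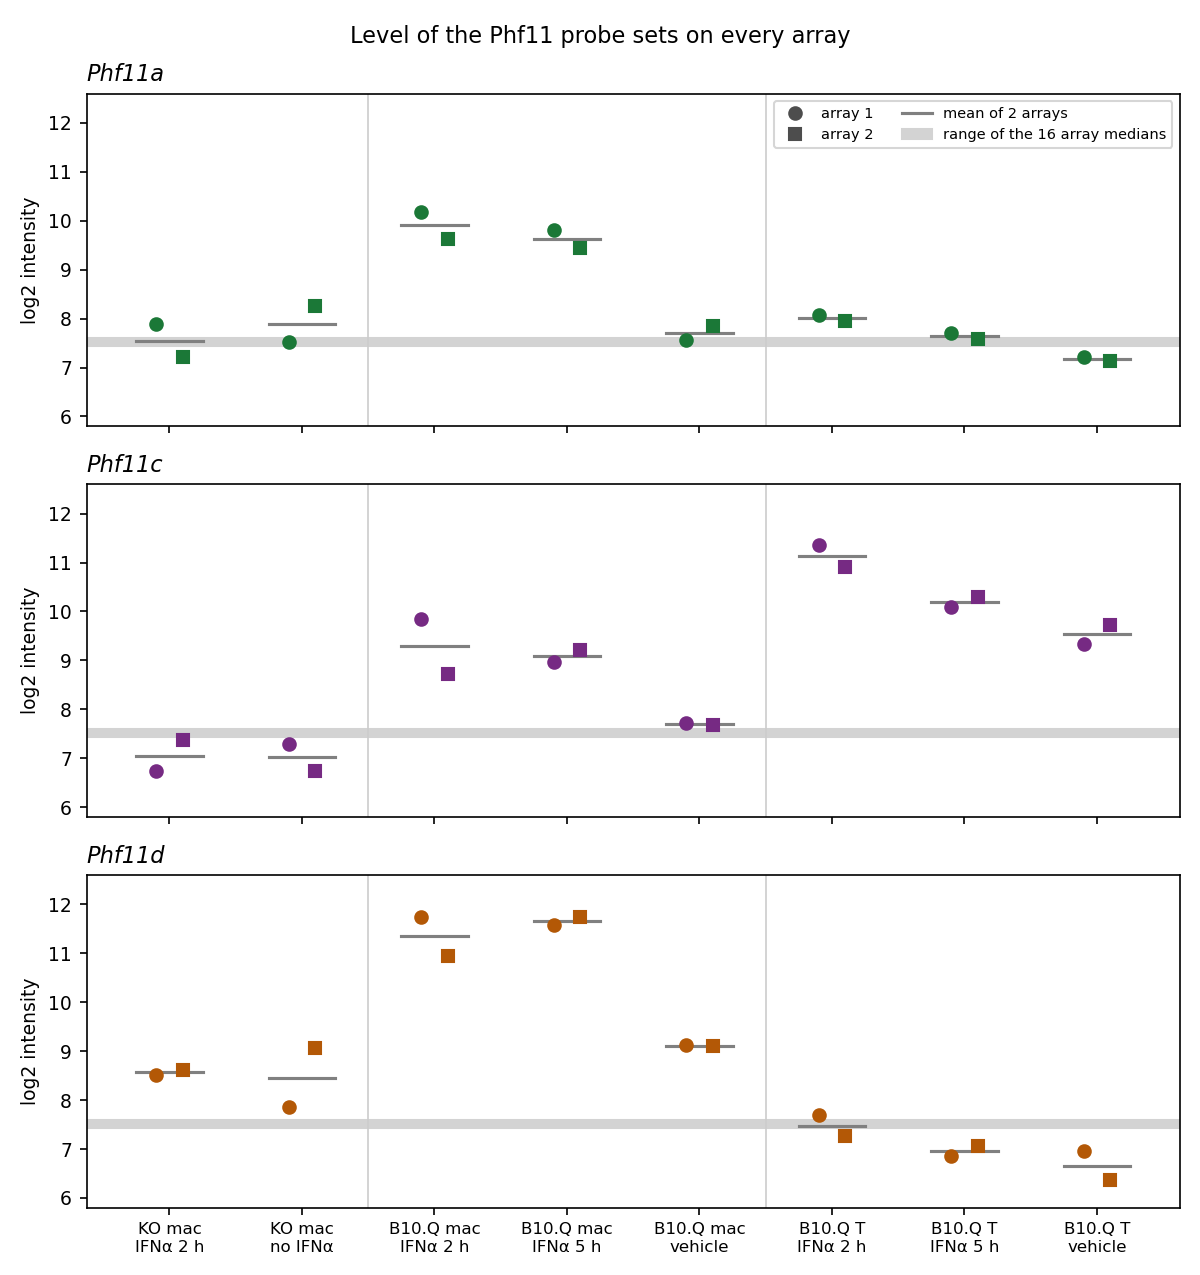
Log2 intensity of the Phf11a, Phf11c and Phf11d probe sets on every array, in 8 groups of 2 arrays; circles are array 1, squares array 2, short lines the mean, and the grey band the range of the 16 array medians (7.44 to 7.60). Phf11a and Phf11d are highest in B10.Q/J macrophages after IFNα and Phf11c in T cells after IFNα, while the knockout pairs overlap or lie close together.

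Between the later and the earlier time in macrophages no paralogue changed beyond the spread. The 5 h minus 2 h difference was -0.28 ± 0.29 for Phf11a (limma, adjusted p = 0.922), -0.20 ± 0.33 for Phf11c (adjusted p = 0.947) and 0.31 ± 0.34 for Phf11d (adjusted p = 0.930). The 95% intervals ran from -0.93 to 0.37, from -0.94 to 0.55 and from -0.46 to 1.08, so changes of up to about 1 log2 unit cannot be told from none. Of all 10531 genes, 0.0095% (1 gene) passed this comparison. These contrasts share their arrays with the responses above.

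In knockout macrophages limma called none of the paralogues with IFNα. The pair without IFNα is so by its title only. If its preparation text is right, every contrast with this pair sets treated arrays where untreated ones are named. Phf11a read 7.88 and 7.22 in knockout macrophages with IFNα, against 7.52 and 8.25 without. Phf11c read 6.73 and 7.37 with IFNα, against 7.30 and 6.74 without. Phf11d read 8.52 and 8.61 with IFNα, against 7.85 and 9.07 without. In each case the groups overlapped. Phf11c lay above the array median on 0 of the 4 knockout arrays and entered the macrophage test through the B10.Q/J arrays; in a fit of the knockout groups alone it failed the filter and was not tested.

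The knockout log2 differences, IFNα minus none, were -0.33 ± 0.29 for Phf11a, 0.03 ± 0.33 for Phf11c and 0.11 ± 0.34 for Phf11d, each with an adjusted p of 1 in limma. Unadjusted p was 0.280 for Phf11a, 0.933 for Phf11c and 0.759 for Phf11d by the same fit. Over all 10531 genes limma called 0 (0%), while 460 had an unadjusted p under 0.05; without knockout IFNα array 1 it called 37 and without array 2 it called 1191. The upper 95% limits were 0.32 for Phf11a, 0.77 for Phf11c and 0.87 for Phf11d, so rises up to these sizes cannot be told from none. The direction of all 3 turned when single knockout arrays were left out, within -0.70 to 0.03 for Phf11a, -0.29 to 0.35 for Phf11c and -0.50 to 0.72 for Phf11d. Markers of other cells varied within the knockout pairs. Those of B cells did so in both, with a summed intensity over 5 genes of 679.0 to 1361.3 with IFNα and 734.5 to 1174.8 without, against 663.4 to 723.3 in B10.Q/J macrophages. The 5 neutrophil genes summed to 336.3 to 431.5 with IFNα and 363.5 to 749.0 without, against 309.9 to 355.2 in B10.Q/J macrophages. The 8 macrophage genes summed to 37285.9 to 49855.3 with IFNα and 45284.6 to 45518.2 without; the part of these in the members' values was not tested.

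The B10.Q/J response at 2 h exceeded the knockout response by 2.53 ± 0.41 for Phf11a, 1.56 ± 0.47 for Phf11c and 2.13 ± 0.49 for Phf11d on the log2 scale. Phf11a was the 1 member past the limma threshold, with 43 of 10531 genes (0.408%) higher in all, and this contrast too served to choose the members. That call was lost without B10.Q/J IFNα 2 h array 1 (2.25), B10.Q/J vehicle array 1 (2.39) or 2 (2.67), or untreated knockout array 2 (2.17), and Phf11d gained one without untreated knockout array 1 (2.74) or knockout IFNα array 2 (2.17), as did Phf11c without the last (1.87). Both responses run against their own untreated arrays, which did not differ detectably between the lines. Untreated knockout minus B10.Q/J vehicle was 0.17 ± 0.29 for Phf11a (limma, adjusted p = 0.818), -0.68 ± 0.33 for Phf11c (adjusted p = 0.462) and -0.66 ± 0.34 for Phf11d (adjusted p = 0.483). In that comparison 57 of 10531 genes (0.541%) passed. For Phf11c both untreated knockout arrays, 7.30 and 6.74, lay below both vehicle arrays, 7.73 and 7.67.

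In T cells Phf11c had the largest difference of the 3. Phf11c read 11.35 and 10.90 at 2 h and 10.09 and 10.29 at 5 h after IFNα, against 9.34 and 9.73 with vehicle. The 3 groups did not overlap, with the 2 h pair highest. The log2 difference of Phf11c from vehicle was 1.59 ± 0.18, 3.02-fold, at 2 h and 0.66 ± 0.18, 1.58-fold, at 5 h.

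Phf11a showed the same shape at smaller size. It read 8.08 and 7.95 at 2 h and 7.71 and 7.59 at 5 h after IFNα, against 7.22 and 7.13 with vehicle, again without overlap. Its log2 difference was 0.84 ± 0.10, 1.78-fold, at 2 h and 0.47 ± 0.10, 1.39-fold, at 5 h.

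Phf11d lay near or below the array median throughout the T cells. It read 7.69 and 7.27 at 2 h and 6.86 and 7.07 at 5 h after IFNα, against 6.96 and 6.36 with vehicle. It exceeded its array's median on fewer than 2 of the 6 T-cell arrays and was left out of the T-cell test, while all 3 members passed that filter in macrophages and in the 12 B10.Q/J arrays. Its log2 difference was 0.82 ± 0.20, 1.76-fold, at 2 h and 0.30 ± 0.20, 1.24-fold, at 5 h, where the 5 h and vehicle arrays overlapped. Phf11a lay above the array median on the 4 IFNα arrays and on 0 of the 2 vehicle arrays of T cells, so it entered the test through the arrays where it is high, and its fold rests on a vehicle level below the median. Both tested members, Phf11a and Phf11c, were among the 28 of 10112 genes (0.277%) called higher at 2 h in T cells, and neither among the 2 genes (0.0198%) called higher at 5 h. Under the stricter filter Phf11a was not tested. These responses chose the members, so the calls are a description. Both 2 h calls were lost without T-cell vehicle array 1 (0.88 for Phf11a and 1.40 for Phf11c) or array 2 (0.79 and 1.79).

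Markers of macrophages moved with the 2 h T-cell values. The summed intensity of 8 macrophage genes was 2500.7 to 6958.5 on the 2 IFNα 2 h arrays and 1469.2 to 1517.9 at 5 h, against 1483.5 to 1682.4 with vehicle, and 37285.9 to 51509.7 in macrophages. Adgre1 read 8.63 and 6.82 at 2 h, against 6.65 and 5.88 with vehicle. Bst2, which is not among the 8 and which interferon also induces, read 9.43 and 9.15 at 2 h and 8.81 and 8.79 at 5 h, against 8.67 and 8.72. The first IFNα 2 h array held the most, and without it the 2 h difference was 1.37 for Phf11c and 0.77 for Phf11a, while without the second it was 1.82 and 0.90. Phf11d read 7.69 on the first and 7.27 on the second of these T-cell arrays, against 11.75 and 10.95 in macrophages 2 h after IFNα. Since it was not tested in T cells, its T-cell difference was not recomputed without single arrays, and macrophage RNA may enter it. The part of macrophage RNA in the T-cell values was otherwise not tested.

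Both tested paralogues were lower at 5 h than at 2 h in T cells, short of the threshold. The 5 h minus 2 h difference was -0.36 ± 0.10 for Phf11a (limma, adjusted p = 0.386) and -0.94 ± 0.18 for Phf11c (adjusted p = 0.355), with 1 of 10112 genes (0.00989%) called. Without the second IFNα 2 h array they were -0.43 and -1.16. Those values rest on the first IFNα 2 h array alone, which held the most macrophage signal (Adgre1 8.63, against 6.82 on the second). For the untested Phf11d the difference was -0.51 ± 0.20.

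**Figure D2:**
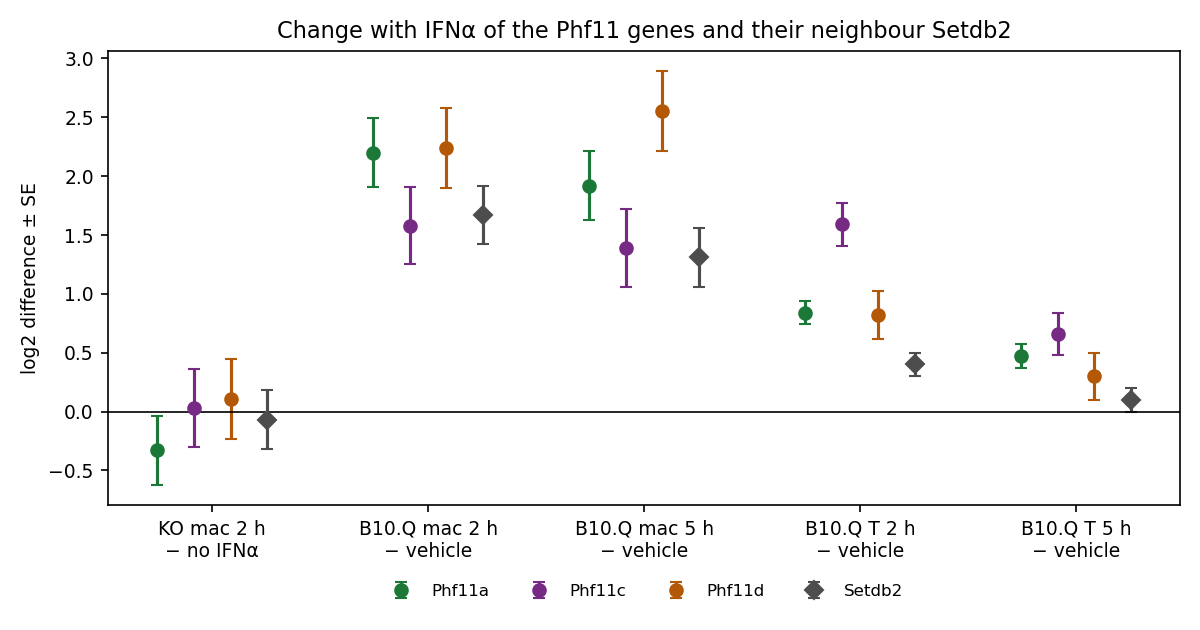
Log2 difference with IFNα (points, vertical axis) and its SE (bars) for Phf11a, Phf11c, Phf11d and their neighbour Setdb2 in knockout macrophages, B10.Q/J macrophages and B10.Q/J T cells. The knockout values lie between -0.33 and 0.11, Phf11d reaches 2.55 in B10.Q/J macrophages at 5 h, and Phf11c at 1.59 is the highest of the 4 genes in T cells at 2 h.

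Set side by side, the difference at 2 h was larger in macrophages for Phf11a and Phf11d and nearly equal in the 2 cell types for Phf11c. The macrophage response minus the T-cell response at 2 h was 1.36 ± 0.25 for Phf11a, -0.01 ± 0.39 for Phf11c and 1.42 ± 0.34 for Phf11d. The 95% interval for Phf11c ran from -0.87 to 0.85, so it does not show that the 2 cell types responded alike, and the sign turned when 1 of 4 arrays was left out, the largest value being 0.55 without the second macrophage IFNα 2 h array. At 5 h the differences were 1.45 ± 0.25 for Phf11a, 0.73 ± 0.39 for Phf11c and 2.24 ± 0.34 for Phf11d. In limma 3 of 11161 genes (0.0269%) were higher in this contrast at 2 h, none of them a member, and 27 (0.242%) at 5 h, among them Phf11a and Phf11d. The 5 h call of Phf11a was lost without any 1 of the 8 arrays (1.26 to 1.64) and that of Phf11d without any of them but T-cell vehicle array 2, while at 2 h Phf11a gained a call without the second IFNα array of either cell type (1.64 and 1.30) and Phf11d without that of macrophages (1.82). Phf11d lay above the array median on all 6 B10.Q/J macrophage arrays and on 1 of 6 T-cell arrays, at 2 h, so it entered this fit through the macrophages. These contrasts chose the members and are a description.

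**Figure D3:**
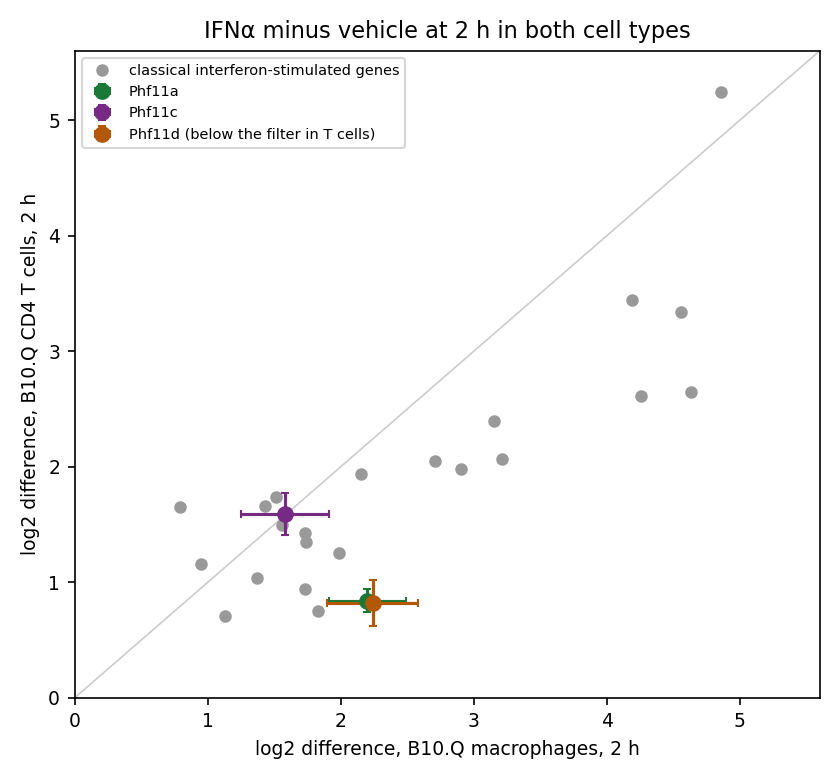
Log2 difference with IFNα at 2 h in B10.Q/J macrophages (horizontal axis) and CD4 T cells (vertical axis) for the 3 Phf11 genes (coloured, bars are SE) and classical interferon-stimulated genes (grey), with the line of equal change. Phf11c lies on the line at 1.58 and 1.59, and Phf11a and Phf11d lie together below it at 2.20 and 0.84 and at 2.24 and 0.82.

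Without interferon limma also called each paralogue different between the cell types, though the call of Phf11a did not hold without single arrays. In vehicle macrophages minus vehicle T cells Phf11d was higher by 2.45 ± 0.24, or 5.48-fold (limma, adjusted p = 1.89e-06), with 9.12 and 9.11 in macrophages against 6.96 and 6.36 in T cells. Both T-cell values lay below their array medians, and Phf11d was tested here through the macrophage arrays. Phf11c was lower in macrophages, by -1.83 ± 0.28 (adjusted p = 9.64e-05), a level 3.56-fold higher in T cells. Phf11a was higher in macrophages by 0.53 ± 0.17, or 1.44-fold (limma, adjusted p = 0.0187), with T-cell levels of 7.22 and 7.13 that lay below their array medians. That last call was lost without the second macrophage vehicle array (0.39, adjusted p = 0.147) or the second T-cell vehicle array (0.48, adjusted p = 0.0897). The background here is wide, since 28.1% of 11161 genes were higher and 34.1% lower in macrophages. The vehicle arrays are shared with the responses. The family was chosen with earlier results of these data known, so these calls too are a description.

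Over the 8 groups, the order of levels differed between the probe sets. For Phf11a the macrophage IFNα groups (means 9.91 at 2 h and 9.63 at 5 h) overlapped each other and no other group, while the next 6, with means from 8.01 down to 7.18, formed a chain in which each overlapped its neighbour. For Phf11c the T-cell IFNα 2 h group led at 11.12, then T cells at 5 h at 10.19 and T-cell vehicle at 9.53. That vehicle level overlapped the macrophage level 2 h after IFNα, 9.29, and the knockout pairs at 7.05 and 7.02 were lowest. For Phf11d the macrophage IFNα groups led at 11.66 and 11.35, and every macrophage group, knockout included, lay above every T-cell group. These orders are within a probe set, and levels of different probe sets were not compared. Since the paralogues resemble each other, RNA of one may bind probes of another, and how far was not tested.

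Of the neighbours with a probe set, the nearest is Setdb2, a histone methyltransferase gene 8497 bases from Phf11c on the side of its start. Gm45935, which overlaps Phf11c, and Phf11b had none. Setdb2 read 10.34 and 9.39 at 2 h and 9.46 and 9.56 at 5 h after IFNα in B10.Q/J macrophages, against 8.27 and 8.13 with vehicle, with no overlap. The log2 difference was 1.67 ± 0.25 (limma, adjusted p = 0.0123) at 2 h and 1.31 ± 0.25 (adjusted p = 0.0482) at 5 h. In T cells it read 9.30 and 9.09 at 2 h and 8.93 and 8.87 at 5 h, against 8.83 and 8.77 with vehicle, a difference of 0.40 ± 0.10 at 2 h (adjusted p = 0.466).

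Phf11c had a log2 difference of 1.59 in T cells at 2 h, against 0.40 for Setdb2, and the gap between the 2 genes was not tested. In knockout macrophages Setdb2 read 7.75 and 8.04 with IFNα, against 8.06 and 7.87 without. Because Gm45935 is annotated across both genes, its transcripts could reach either probe set. Of 19 other genes annotated within 500000 bases of a member, 8 had a probe set and 5 were tested. Setdb2 was the 1 called in macrophages at 2 h, and limma called 0 of 5 in T cells at 2 h, with 1 at an unadjusted p under 0.05; Rcbtb1, Cab39l, Cdadc1 and Shisa2, the other 4, lay within 0.21 of 0 in both.

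**Figure D4:**
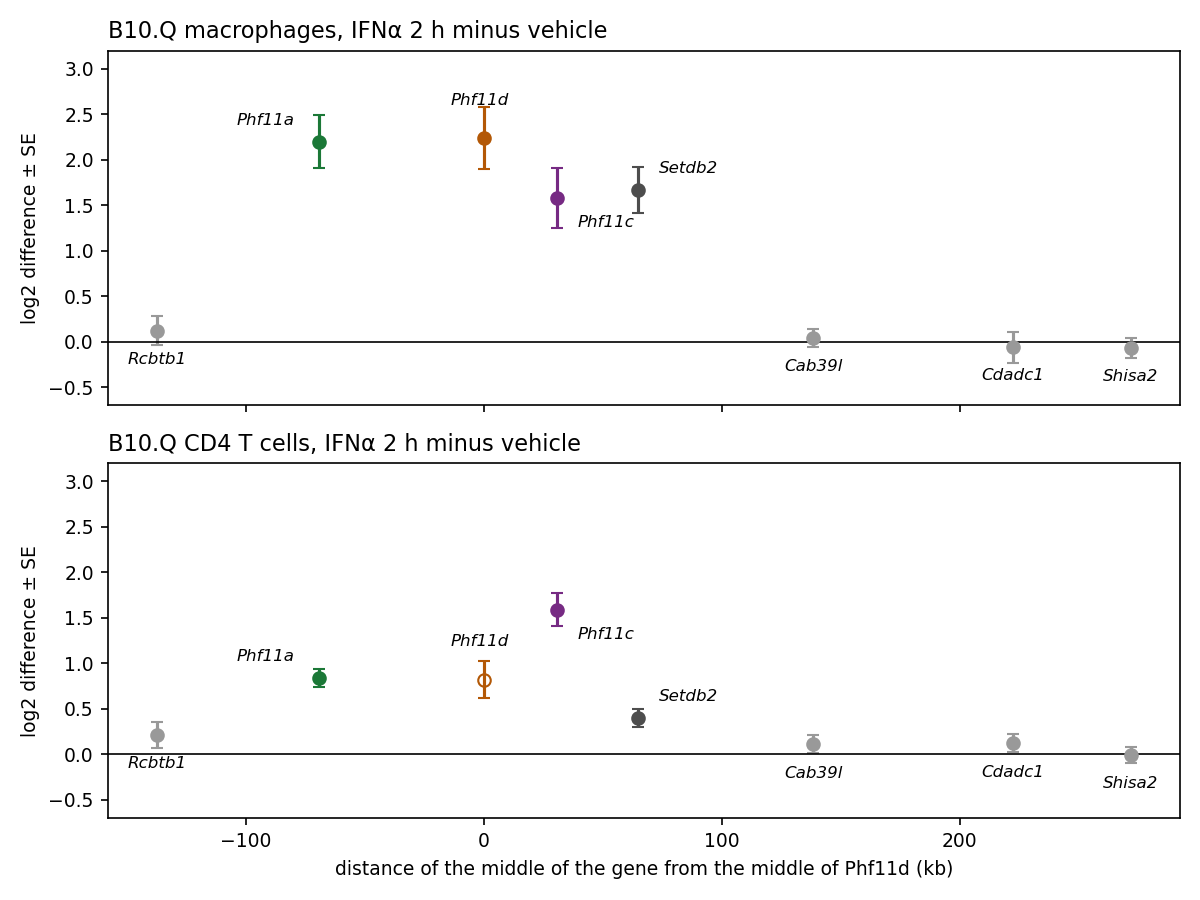
Log2 difference with IFNα at 2 h (vertical axis, bars are SE) against the distance of each gene's middle from that of Phf11d in kb, for B10.Q/J macrophages above and CD4 T cells below; the open circle is Phf11d where it was not tested. In macrophages Phf11a, Phf11d, Phf11c and Setdb2 stand between 1.58 and 2.24, and in T cells Phf11c at 1.59 stands above its neighbours.

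Across the 12 B10.Q/J arrays, with each cell type's mean removed, the genes most like each member differed between the 3. Nearest to Phf11a were the antiviral synthetase gene Oas1a (Pearson r = 0.970), Helz2 (0.968), Slfn10-ps (0.966), Gm12250 (0.966) and the antiviral GTPase gene Mx1 (0.965). Nearest to Phf11c were Ifit3 (0.985), the proteasome activator gene Psme1 (0.984), Samd9l (0.983), Cmpk2 (0.983) and Ifit1 (0.979). Nearest to Phf11d were Znfx1 (0.978), Oasl2 (0.976), the RNA sensor gene Ddx58 (0.976), Sass6 (0.974) and Sp100 (0.973).

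The members were less alike to each other than to these. Phf11a and Phf11d correlated at r = 0.949, Phf11a and Phf11c at 0.871, and Phf11c and Phf11d at 0.85. Of 11160 other genes, Phf11d ranked 18 by likeness to Phf11a and Phf11c ranked 99. Over the 12 B10.Q/J arrays, Setdb2 ranked 122 by likeness to Phf11c (r = 0.868), 22 to Phf11a (r = 0.948) and 45 to Phf11d (r = 0.932). Over the 10 macrophage arrays, Setdb2 ranked 2 by likeness to Phf11c (r = 0.976), 90 to Phf11a (r = 0.874) and 120 to Phf11d (r = 0.87). Over the same 10 arrays Xaf1 was near both Phf11a (rank 1, r = 0.969) and Phf11d (rank 4, r = 0.968). Psme1 had r = 0.623 to Phf11c there. All these points share the treatment groups and 2 arrays a group, so the values describe the arrays.

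The family's size of change can be set beside the pathway, whose lists were drawn up with earlier results known. Of 10 tested genes of the receptor and ISGF3 pathway, limma called 4 higher in macrophages at 2 h, with 6 above 0, and 3 in T cells, with 7 above 0. Usp18, which restrains the receptor, rose by 4.34 ± 0.42 in macrophages (limma, adjusted p = 0.00101) and 3.43 ± 0.27 in T cells (adjusted p = 0.00631), and Irf7 by 2.70 and 1.87. Of 23 classical interferon-stimulated genes limma called 21 higher in macrophages at 2 h, with a median log2 difference of 1.99, against -0.06 over all genes tested, and 21 at 5 h with a median of 2.15. Examples are Mx1 (5.22 ± 0.26), Ifit1 (4.86 ± 0.42) and Rtp4 (4.56 ± 0.25).

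In T cells all 23 were above 0 at both times. Limma called 9 of them at 2 h (median 1.66), with 23 at an unadjusted p under 0.05, and 1, Rtp4, at 5 h (median 0.66), with 17 at an unadjusted p under 0.05. In knockout macrophages limma called 0 of 23 and gave 2 an unadjusted p under 0.05 (median -0.23, with -0.01 over all genes). For the macrophage minus T-cell response this list had a median of 0.54 at 2 h, with 18 of 24 genes above 0 and 1 called, and of 1.51 at 5 h, with 24 of 24 above 0 and 5 called.

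Other genes named for a PHD finger had median differences near 0. Limma called 0 of 19 in macrophages at 2 h and 0 of 18 in T cells, and gave 3 and 2 of them an unadjusted p under 0.05. In macrophages 1 of the 19 was above 0, with a median of -0.12, against -0.06 over all genes tested. In T cells 8 of the 18 were above 0, with a median of -0.01, against -0.03 over all genes tested. The widest were Phf5a at -0.39 ± 0.16 and Phf12 at -0.33 ± 0.13 in macrophages. The list of factors linked to human PHF11 also held the neighbour Setdb2, and 5 of its genes were tested in macrophages. Setdb2, already described above, was the 1 called at 2 h, while Rela and the RPA subunit genes were not called. Rela, which encodes p65, moved by -0.18 ± 0.13 and the RPA subunit gene Rpa1 by 0.16 ± 0.13, both with an adjusted p of 0.984.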

How the data were processed

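Cells were sorted from the peritoneal cavity or spleen, RNA was amplified with the Ambion WT Expression Kit and hybridised to Affymetrix arrays, per the labels. The deposited table holds normalised intensity values of the probe sets, linear rather than log, for 16 arrays, and RMA and Affymetrix Power Tools are named in the submitters' processing notes. The genome build behind the probe sets is not given in the sources used here. Of the 24922 probe sets, 21425 had 1 gene symbol, 1399 several and 2098 none in the platform annotation. The number of arrays limits the precision.

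Here log2 was taken, the probe set with the highest mean stood for a gene (921 genes had several; each member had 1), and genes above their array's median on at least 2 arrays of a fit were tested with limma 3.58.1 in R 4.3.3, two-sided, with Benjamini-Hochberg adjustment over all genes and a threshold of 0.05. There were 3 fits without a block: 10 macrophage arrays, 6 T-cell arrays and 12 B10.Q/J arrays, each sharing 1 estimate of the spread. Alternatives were quantile normalization, array medians subtracted, no or a stricter filter, every probe set, trend and robust variance, a replicate block, only the groups compared, all 16 arrays and leaving out each array.

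The members and all gene lists were chosen with earlier results of these data known. Named genes are the members, the 5 most alike over the 12 B10.Q/J arrays, and from each list those among the 4 largest differences at 2 h in either cell type. Setdb2's ranks by likeness, Xaf1, Cab39l, Shisa2, Bst2 and Siglech were named after their values were seen. Promoter windows were aligned globally. Probe sets with several symbols were left out; none of them named a Phf11 gene.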

Additional observations from a re-analysis of the deposited data

Results flagged for a closer look

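In these groups of 2 arrays no check for a single far array can be made. By the test of the difference itself, 3 member responses passed the threshold, all on the log2 scale. Phf11a passed at 2 h in B10.Q/J macrophages minus knockout macrophages, by 2.53 (limma, adjusted p = 0.0300). There 0.408% of 10531 genes were called higher. At 5 h in macrophages minus T cells Phf11a passed by 1.45 (limma, adjusted p = 0.0389) and Phf11d by 2.24 (adjusted p = 0.0267). In that contrast 0.242% of 11161 genes were called higher. Phf11d entered the last of these fits through the macrophages, since its T-cell levels at 5 h (6.86 and 7.07) and with vehicle (6.96 and 6.36) lay below their array medians. The same contrasts served to choose the family, so these p-values are no independent support, and none of the 3 held under every alternative.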

How the results depend on the processing

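For the 3 members there were 33 results and 461 recomputed values, of which 386 kept their direction and side of the threshold, 50 lost the threshold, 13 gained it and 12 turned direction. Phf11d and Phf11c between vehicle macrophages and T cells kept direction and call under all alternatives run. With only the groups compared, Phf11c in B10.Q/J macrophages passed at 2 h (1.58) and 5 h (1.39) and Phf11a in T cells at 5 h (0.47), while Phf11a (0.84) and Phf11c (1.59) in T cells at 2 h and Phf11a in the B10.Q/J minus knockout response (2.53) no longer passed. With all 16 arrays, Phf11c in macrophages at 2 h passed (1.58), and Phf11a in T cells at 2 h (0.84), the macrophage minus T-cell response at 5 h of Phf11a (1.45) and Phf11d (2.24), and Phf11a between vehicle cell types (0.53) did not. Quantile normalization ended the calls of Phf11a against the knockout (2.55) and of Phf11a (1.41) and Phf11d (2.20) in the 5 h cell-type difference, and trend and robust variance ended that of Phf11d (2.24). Phf11a in T cells under the stricter filter and Phf11c in the knockout groups alone failed the filter and gave no value. The causes were not tested.

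With the replicate number as a replicate block, the Phf11a response against the knockout was still 2.53 but its adjusted p in limma was 0.0517, and no other member's call changed. The deviations of same-numbered arrays had no common direction: over 28 pairs of groups r ran from -0.277 to 0.446, above 0 in 13. Between B10.Q/J macrophages and T cells of the same treatment, r was 0.157 at 2 h, -0.135 at 5 h and 0.148 with vehicle. The labels do not pair the arrays, and with 2 arrays a group this check cannot exclude a pairing.

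Leaving out 1 array gave these ranges. In knockout macrophages they were -0.70 to 0.03 for Phf11a, -0.29 to 0.35 for Phf11c, with -0.25 without the second untreated array, and -0.50 to 0.72 for Phf11d. In B10.Q/J macrophages at 2 h they were 1.92 to 2.48, 1.03 to 2.14 and 1.84 to 2.64 for Phf11a, Phf11c and Phf11d, and at 5 h 1.73 to 2.11 for Phf11a and 2.47 to 2.63 for Phf11d. For 5 h minus 2 h they were -0.55 to 0.00, -0.76 to 0.36 and -0.09 to 0.71 in the same order. Untreated knockout minus vehicle gave -0.19 to 0.54, -0.96 to -0.40 and -1.27 to -0.05 in that order. The B10.Q/J minus knockout response gave 2.17 to 2.90, 1.00 to 2.11 and 1.52 to 2.74. In T cells Phf11a gave 0.77 to 0.90 and Phf11c 1.37 to 1.82 at 2 h, and -0.43 to -0.30 and -1.16 to -0.71 for 5 h minus 2 h. The macrophage minus T-cell response gave 1.09 to 1.64, -0.57 to 0.55 (0.22, 0.19 and 0.02 without T-cell IFNα 2 h array 1, T-cell vehicle array 1 or macrophage vehicle array 1) and 1.02 to 1.82 at 2 h, and 1.26 to 1.64 for Phf11a and 1.94 to 2.54 for Phf11d at 5 h. Between vehicle cell types Phf11a gave 0.39 to 0.67.

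Counts of genes called moved widely when 1 array was left out. They ran from 0 to 1191 for the knockout (0 with all arrays), 36 to 123 and 29 to 38 for B10.Q/J macrophages at 2 h (84) and 5 h (88), 1 to 5 for 5 h minus 2 h (1), 21 to 33 for untreated macrophages (57) and 8 to 491 for the response against the knockout (43). In T cells they ran from 0 to 1817 at 2 h (29), 0 to 0 at 5 h (2) and 0 to 1641 for 5 h minus 2 h (1), and for the cell-type difference from 1 to 511 at 2 h (3) and 6 to 11 at 5 h (28). Under the other alternatives the counts ran from 0 to 11, 75 to 123, 75 to 203, 1 to 40, 30 to 198, 32 to 72, 2 to 50, 1 to 63, 0 to 7, 1 to 7 and 8 to 140 in that order.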
